A study of Rattus norvegicus with 63 samples.

Results

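Histone H3 was measured on the protein array with 6 analytes out of 158, 1 antibody against total H3 (HIST1H3A) and 5 antibodies against modified forms. The members were all analytes listed under the symbol HIST1H3A, a rule on names that uses no measured value. The modified forms were acetylated lysine 18 (acetyl-K18), dimethylated lysine 4 (dimethyl-K4), phosphorylated serine 10 (phospho-S10), phosphorylated serine 28 (phospho-S28) and trimethylated lysine 27 (trimethyl-K27). Each antibody reads a residue that the many near-identical H3 gene copies have in common, so the signal belongs to H3 as a family and not to the gene H3c1 alone.

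The arrays held liver lysates of 63 male Wistar Hanover rats, 8 to 10 weeks old when dosing began, of which 45 received 1 of 15 compounds and 18 received vehicle by gastric gavage. Each group had 3 animals. Per the study's methods, the 3 animals of a treatment group taken to the microarrays were chosen for showing some liver change on histopathology. They are therefore not an unselected sample of treated rats. The study took, for each compound, the time point with the strongest mRNA change in an earlier study. The study compared nongenotoxic hepatocarcinogens (NGC), genotoxic hepatocarcinogens (GC) and non-hepatocarcinogens (NC) to find molecular features that tell them apart. Labels assign every compound to 1 of 6 control sets, 4 of methylcellulose (sets 1, 2, 5 and 6, each dosed for 14 days) and 2 of corn oil (set 3 for 7 days, set 4 for 14 days).

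The NGC compounds compared with set 1 were acetamide (AA, 3000 mg/kg/day, 14 days), dehydroepiandrosterone (DHEA, 600 mg/kg/day, 14 days), methylcarbamate (Mcarb, 400 mg/kg/day, 14 days) and methapyrilene (MPy, 60 mg/kg/day, 7 days). Those compared with set 5 were diethylstilbestrol (DES, 10 mg/kg/day, 3 days), ethionine (ETH, 200 mg/kg/day, 14 days) and piperonylbutoxide (PBO, 1200 mg/kg/day, 3 days). Phenobarbital (PB, 14 days, no dose in the sample labels) was compared with set 6. The GC compounds, both with set 3, were C.I. Direct Black (CIDB, 146 mg/kg/day) and dimethylnitrosamine (DMN, 4 mg/kg/day), each for 7 days. The NC compounds, both with set 2, were cefuroxime (CFX, 250 mg/kg/day) and nifedipine (Nif, 3 mg/kg/day), each for 14 days. Of no defined class were cyproterone acetate (CPA, 100 mg/kg/day, 14 days, set 4), thioacetamide (TAA, 19.2 mg/kg/day, 7 days, set 1) and the peroxisome proliferator Wy-14643 (Wy, 60 mg/kg/day, 3 days, set 1). MPy, TAA, Wy, DES and PBO were dosed for shorter than their control set, so duration and compound cannot be told apart in those comparisons.

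Histone H3 is a core protein of the nucleosome, and enzymes write and erase marks on its tail. Acetylated lysine 18 and dimethylated lysine 4 are found at active genes, trimethylated lysine 27 at genes silenced by Polycomb complexes, and phosphorylated serines 10 and 28 on condensed mitotic chromosomes and, briefly, at genes switched on by kinase signalling. Adult liver contains few dividing cells, and its hepatocytes are often polyploid. A whole-liver lysate averages over all its cells, so a change in the number of cells or nuclei of a type and a change of the protein per cell cannot be told apart.

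Signals are relative fluorescence intensities (RFI), the background-corrected and normalised spot intensity of the array. All 378 values of the 6 analytes were above 0. Animals differed in brightness, with a median RFI over all analytes from 0.425 to 0.882. Of 9 hepatocyte proteins looked for, 8 were on the panel, with median RFI from 0.191 to 70.3, and of 9 markers of other liver cells none was, so the cell makeup of the lysates was not measured.

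Total H3 was the bright and variable member. Its RFI ran from 0.175 in control animal 5 of set 3 to 10.6 in control animal 8 of set 5, a 60.7-fold range around a median of 2.69. Animals of one group differed by an SD of 0.85 on the log2 scale, the fourth widest of 158 analytes, against a median of 0.26 over all analytes. The modified forms were dim and even by comparison. Phospho-S28 was the brightest of them with a median RFI of 1.09 (0.789 to 1.503), followed by dimethyl-K4 at 0.356 (0.260 to 0.497) and acetyl-K18 at 0.322 (0.255 to 0.477). Trimethyl-K27 lay at 0.126 (0.0808 to 0.229) and phospho-S10 at 0.0949 (0.0526 to 0.172), which placed them 147th and 156th in brightness. Antibodies differ in affinity, so these levels do not give the share of H3 that carries a mark. The within-group SD was 0.20 to 0.23 for acetyl-K18, dimethyl-K4 and phospho-S28, 0.34 for trimethyl-K27 and 0.39 for phospho-S10 on the log2 scale.

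**Figure D1:**
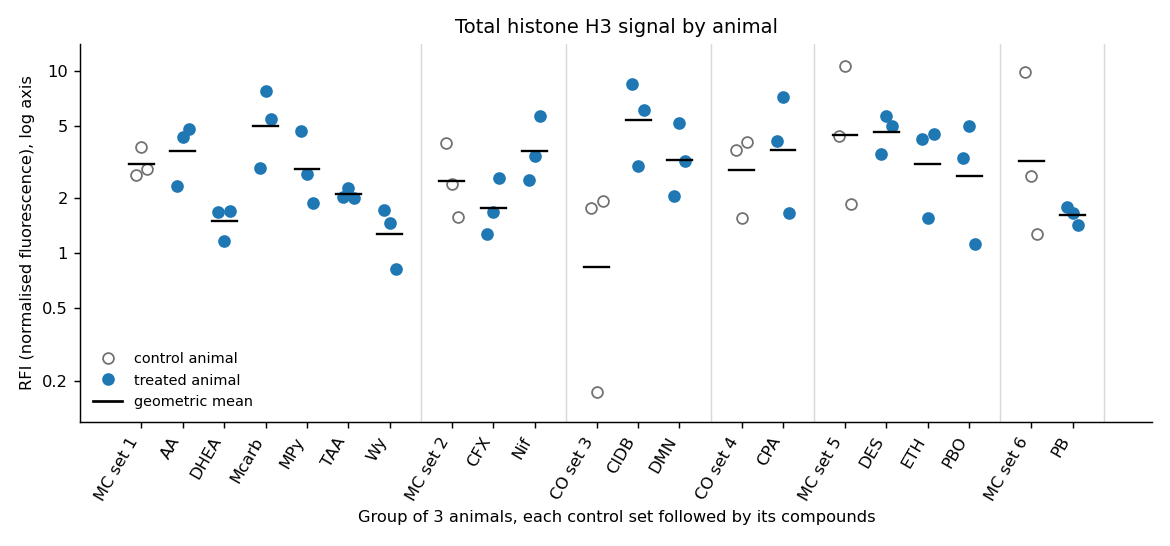
RFI of total H3 on a log axis for each of the 63 animals, with open circles for controls, filled circles for treated animals and a bar at the geometric mean of the 3 animals. CIDB animals lie at 3.03 to 8.46 and set 3 controls at 0.175 to 1.93, and the spread within many groups is as wide as the distance between groups.

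Total H3 rose with C.I. Direct Black, an azo dye of the GC class. Its RFI was 8.46, 3.03 and 6.07 in CIDB animals 1, 2 and 3 and 1.77, 0.175 and 1.93 in control animals 4, 5 and 6 of set 3. All CIDB animals stood above all controls, and control animal 5 stood far below every other animal of the study, the next lowest value being 0.825. The log2 fold change was 2.67 (SE 0.67, 95% interval 1.33 to 4.02), a 6.38-fold difference of geometric means, with a limma adjusted p of 0.0042. In CIDB 12 of 158 analytes passed the adjusted p threshold of 0.05 (7.59%), and total H3 was the 1 member among them. Without control animal 5 the log2 fold change was 1.54 (SE 0.65) and the limma adjusted p 0.29, and in a limma fit to the 6 animals of the comparison alone the adjusted p was 0.10. Against all 6 corn oil controls the log2 fold change was 1.79 (SE 0.58, limma adjusted p = 0.046). These 6 still include control animal 5. They also include set 4, dosed for 14 days, whose RFI of 1.56 to 4.07 overlapped the CIDB animals.

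Dimethylnitrosamine, the alkylating genotoxin given beside it, had total H3 RFI of 2.06, 5.18 and 3.22. These 3 animals also lay above the set 3 controls, and they overlapped the CIDB animals. The log2 fold change against set 3 was 1.95 (SE 0.67, 95% interval 0.61 to 3.29) and did not pass the test (limma adjusted p = 0.21), in a comparison in which 2 of 158 analytes were called (1.27%). A direct comparison of CIDB with DMN, added after the values were seen, gave a log2 difference of 0.73 (SE 0.67, 95% interval -0.62 to 2.07, limma adjusted p = 0.64), where 5 of 158 analytes were called (3.16%). CIDB and DMN share their controls, so the values of both against set 3 rest on the same 3 animals.

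Control animal 5 was not dim in general. Its median RFI over the panel was 0.538, and its acetyl-K18, dimethyl-K4, phospho-S10, phospho-S28 and trimethyl-K27 were the middle values of set 3. The other core histones measured in it were histone H2B (HIST1H2BB) at 0.609, within the corn oil range of 0.585 to 1.10, and histone H4 acetylated at lysine 8 (HIST1H4A_A-K8) at 0.534, the highest of the 6 corn oil controls. In the submitters' table of log2 ratios to the control median it also held the lowest total H3 value of all 63 animals, at -4.03.

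The remaining 13 compounds gave log2 fold changes of total H3 from -1.28 to 0.68, and none passed the limma test. The lowest was Wy, with RFI of 1.74, 1.46 and 0.825 against 2.69, 3.83 and 2.88 in set 1 (log2 fold change -1.28, SE 0.67, 95% interval -2.62 to 0.07, limma adjusted p = 0.34). DHEA, which like Wy causes peroxisome proliferation in rat liver, had RFI of 1.69, 1.17 and 1.70 (log2 fold change -1.05, SE 0.67, limma adjusted p = 0.46). TAA, also set against set 1, had RFI of 2.04, 2.29 and 2.02 (log2 fold change -0.55, limma adjusted p = 0.77). In all 3 compounds every treated animal was below every set 1 control, and the comparisons share those controls. In PB, the inducer of cytochrome P450 2B, total H3 RFI was 1.79, 1.67 and 1.43 against 9.80, 2.66 and 1.27 in set 6, where control animal 1 was high and the groups overlapped. In a limma fit to the 6 animals of each comparison alone, total H3 passed the test lower in DHEA, PB and Wy (adjusted p 0.011 to 0.034). The SEs in these fits were 0.22 in DHEA, 0.31 in PB and 0.27 in Wy. This fit draws the SE of an analyte towards the spread of the other analytes. Over all groups total H3 spread more than most. In DHEA (RFI 1.17 to 1.70) and set 1 (2.69 to 3.83) its animals lay closer together than in set 6 (1.27 to 9.80). How far the fit lowered each SE was not tested. The PB groups overlapped, so that p does not measure the spread of those 6 animals. The share of the panel called in this setting is not given here. Ordered by geometric mean, the 21 groups ran from set 3 at 0.842 and Wy at 1.28 up to Mcarb at 4.98 and CIDB at 5.38. The largest step between neighbours, 0.60 on the log2 scale from set 3 to Wy, was smaller than the SE of a difference of 0.67. Sorting 21 means keeps such steps small, so they do not tell whether groups farther apart in the order differ.

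Phospho-S10, the mark set by Aurora B in mitosis and by kinases of the MAP kinase cascade at induced genes, rose with piperonylbutoxide. Its RFI was 0.139, 0.161 and 0.117 in PBO animals 1, 2 and 3 and 0.0658, 0.0526 and 0.0881 in control animals 7, 8 and 9 of set 5. All PBO animals were above all controls, at a level close to the lower end of the panel. The log2 fold change was 1.03 (SE 0.31, 95% interval 0.41 to 1.66, limma adjusted p = 0.034), a 2.05-fold difference, in a comparison in which 10 of 158 analytes were called (6.33%). The call was lost on leaving out control animal 7 or 8 or PBO animal 1 or 2 (log2 fold change 0.86 to 1.03, limma adjusted p 0.076 to 0.18), and against all 12 methylcellulose controls (0.65, adjusted p = 0.074). In the submitters' log2 ratios the sign turned, with 0.02, -0.54 and -0.81 for PBO against -0.37, 0.61 and 0.00 for set 5 and a difference of -0.52 (SE 0.73, limma adjusted p = 0.92).

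**Figure D2:**
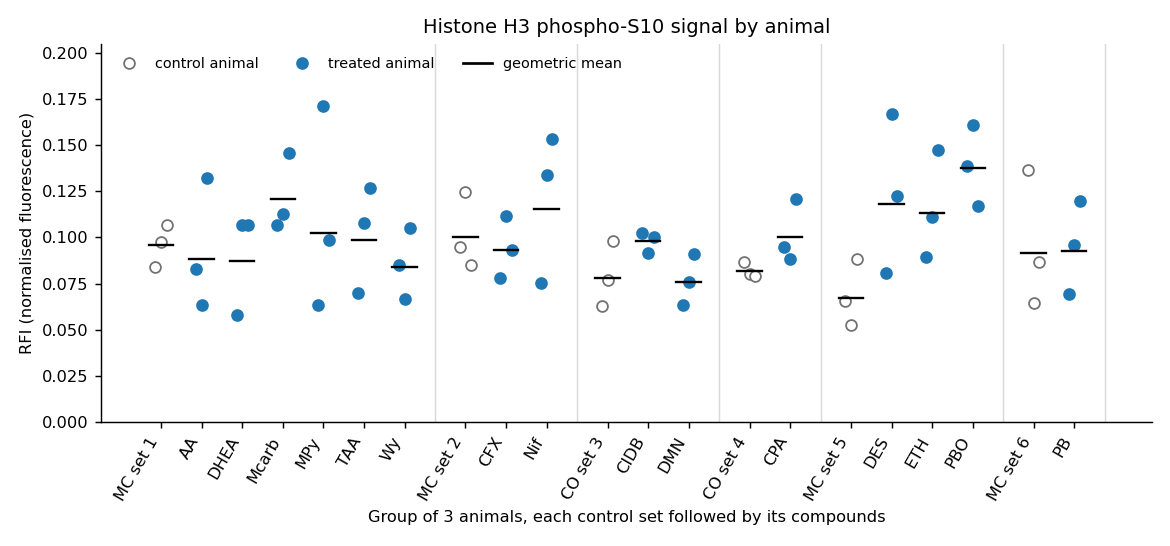
RFI of phospho-S10 H3 for each animal, with open circles for controls, filled circles for treated animals and a bar at the geometric mean. PBO animals lie at 0.117 to 0.161, set 5 controls at 0.0526 to 0.0881, and set 5 has the lowest mean of all 21 groups.

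The other compounds set against the same controls, DES and ETH, lay on the same side without passing the test. In DES, a synthetic estrogen, the RFI was 0.0806, 0.167 and 0.123 (log2 fold change 0.81, SE 0.31, limma adjusted p = 0.27), and animal 1 fell within the control range. In ETH, the ethyl analog of methionine, it was 0.0892, 0.111 and 0.148 (log2 fold change 0.75, SE 0.31, limma adjusted p = 0.23), with all animals just above the controls. DES, ETH and PBO share the set 5 controls, whose geometric mean of 0.0673 was the lowest of the 21 groups. The other methylcellulose sets had 0.0957 (set 1), 0.1001 (set 2) and 0.0914 (set 6), and the differences of sets 1 and 2 from set 5 were 0.51 and 0.57 on the log2 scale (SE 0.31, limma adjusted p = 1.00 and 0.99). In the 12 compounds outside set 5 the phospho-S10 log2 fold change ran from -0.19 to 0.33. The highest single animal of the study was MPy animal 2 at 0.172, while the other MPy animals had 0.0635 and 0.0989.

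Phospho-S28, the second mitotic serine, did not pass the test in any compound. Its log2 fold changes ran from -0.29 in PB to 0.28 in CPA, with an SE of 0.17 in each. The PBO animals, at 1.15, 1.25 and 1.03, overlapped the set 5 controls at 0.944, 1.12 and 1.10 (log2 fold change 0.11, 95% interval -0.23 to 0.46). It overlaps the phospho-S10 interval of 0.41 to 1.66, and the difference between the marks was not tested. In CIDB, with 1.12, 1.24 and 1.15, the log2 fold change of 0.14 had a 95% interval of -0.21 to 0.48.

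Trimethyl-K27, the mark laid by the methyltransferase EZH2, had its highest log2 fold change in CIDB. The RFI was 0.188, 0.141 and 0.171 in CIDB against 0.0853, 0.104 and 0.126 in set 3, with no overlap. The log2 fold change was 0.67 (SE 0.28, 95% interval 0.12 to 1.23) and did not pass the test (limma adjusted p = 0.20), but it passed once each animal was centred on its median (0.63, limma adjusted p = 0.027). PBO came next with 0.162, 0.228 and 0.127 against 0.115, 0.127 and 0.107, where animal 3 met the control range (log2 fold change 0.53, SE 0.28, limma adjusted p = 0.31). In Nif, a calcium channel blocker of the NC class, all animals at 0.137, 0.151 and 0.229 were above the set 2 controls at 0.121 to 0.136 (log2 fold change 0.40, limma adjusted p = 0.94).

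Acetyl-K18 and dimethyl-K4, the marks of active genes, did not pass the test in any compound. Acetyl-K18 ran from -0.31 in TAA to 0.30 in CPA and dimethyl-K4 from -0.33 in PB to 0.30 in ETH on the log2 fold change scale. With SEs of 0.17 and 0.19, the 95% intervals over all 15 compounds stayed within -0.65 to 0.65 for acetyl-K18 and -0.71 to 0.68 for dimethyl-K4. Acetyl-K18 in TAA, a centrilobular liver toxicant, was 0.255, 0.299 and 0.297, all below the set 1 controls at 0.334 to 0.360 (limma adjusted p = 0.75). Dimethyl-K4 in PB was 0.301, 0.297 and 0.360, against 0.497, 0.396 and 0.327 in set 6, where control animal 1 was the brightest animal of the study over the panel.

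**Figure D3:**
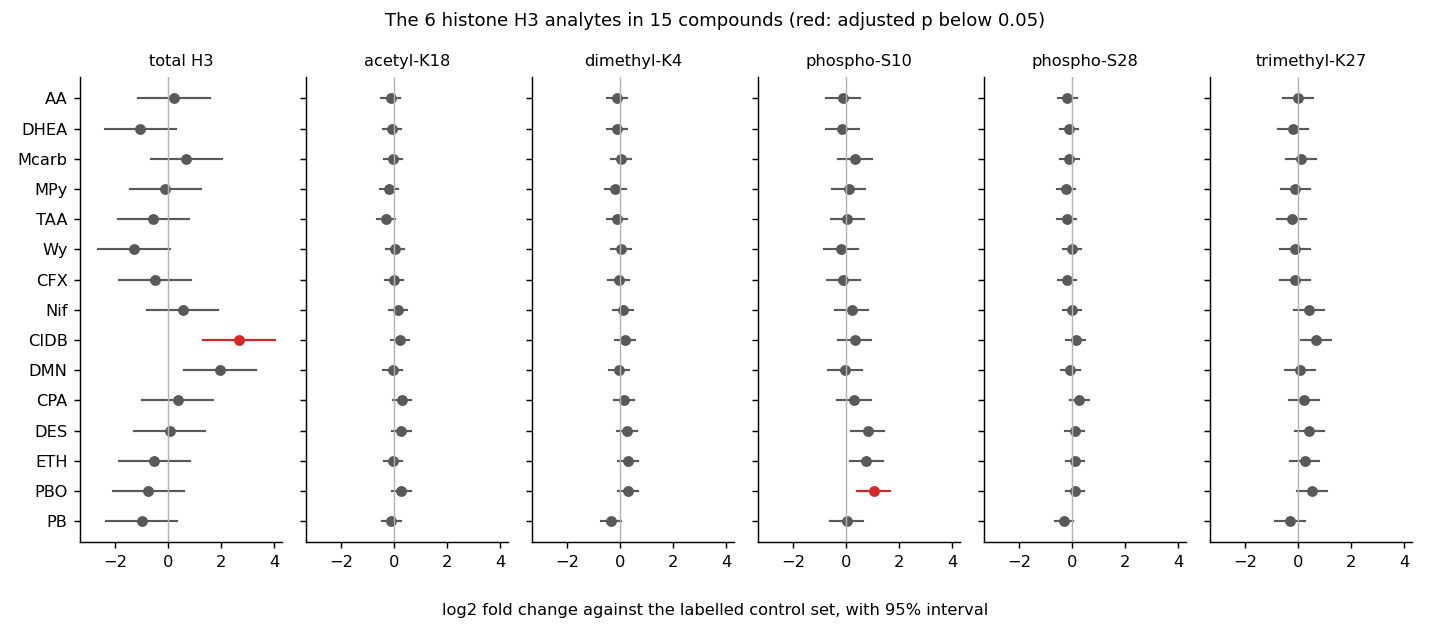
Log2 fold change of each H3 analyte against the labelled control set for the 15 compounds (points), with 95% intervals (lines) and red where the adjusted p was below 0.05. Total H3 in CIDB (2.67) and phospho-S10 in PBO (1.03) are the red points, and the intervals of total H3 are the widest.

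Over the 15 compounds, 2 of 90 H3 comparisons passed the limma test, both higher, against 75 of 2370 over all analytes (3.16%). At an unadjusted p under 0.05 there were 6 of 90, against 254 of 2370 over all analytes. The median log2 fold change was 0.00 for the 90 H3 comparisons and -0.03 for all 2370. All 3 treated animals lay outside the control range in 16 of 90 H3 comparisons (17.8%), against 16.1% for the panel. The number of H3 calls was therefore near the background of the panel. The 13 compounds without an H3 call had 0.0% of analytes called in AA, CFX, Mcarb, MPy and Nif, 1.27% in DMN and ETH, 2.53% in DES, 3.16% in TAA, 5.06% in CPA and PB, 6.33% in DHEA and 8.86% in Wy.

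Controls were also compared with each other. Over the 7 pairs of sets with one vehicle, 0 of 42 H3 comparisons passed the limma test (1 at an unadjusted p under 0.05), against 0.0904% of all analytes. That 1 was total H3 between corn oil sets 3 and 4, where set 4 animals 1, 2 and 3 had 3.66, 1.56 and 4.07. Set 4 animal 2 fell below the upper set 3 values, and the log2 difference of set 3 minus set 4 was -1.76 (SE 0.67, limma adjusted p = 0.34, 0.0% of analytes called). The sets differ in duration too, 7 against 14 days, which cannot be told apart from the set.

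The ratio of a modified form to total H3 was taken within each animal, and it moves with either signal. In CIDB all 5 ratios fell. Acetyl-K18 over total was 0.0494, 0.117 and 0.0554 in CIDB and 0.157, 1.84 and 0.177 in set 3. Trimethyl-K27 over total was 0.0222, 0.0466 and 0.0282 against 0.0482, 0.594 and 0.0656. All CIDB animals were below all set 3 controls for both, and control animal 5, whose denominator was the lowest of the study, stood far above the other controls. The log2 changes were -2.44 (SE 0.63) for acetyl-K18, -2.48 (SE 0.64) for dimethyl-K4, -2.34 (SE 0.72) for phospho-S10, -2.54 (SE 0.66) for phospho-S28 and -2.003 (SE 0.59) for trimethyl-K27, with limma adjusted p from 0.0031 to 0.010. Over the panel, 18 of 48 ratios of a modified protein to its total were called in CIDB (37.5%).

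In DMN all 5 ratios fell, and 4 of 5 passed the test. Those 4 had log2 changes of -2.004 (acetyl-K18), -1.98 (dimethyl-K4), -2.01 (phospho-S28) and -1.87 (trimethyl-K27) and a limma adjusted p of 0.038 for each. Phospho-S10 over total, at -1.99 (SE 0.72, limma adjusted p = 0.062), did not pass. The background was 5 of 48 ratios (10.4%). Between CIDB and DMN the ratios differed by -0.53 to -0.13 on the log2 scale, none passed the limma test (lowest adjusted p = 0.86, 0 of 5 at an unadjusted p under 0.05), and 4.17% of panel ratios did.

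None of the modified forms themselves passed the test in either compound. Their log2 fold changes were 0.14 to 0.67 in CIDB and -0.06 to 0.08 in DMN, so the ratios mostly repeat the total H3 values with the opposite sign and are not separate measurements of a mark. With total H3 as a covariate, acetyl-K18 was lower by -0.03 in CIDB, trimethyl-K27 higher by 0.13, and 0 of 5 passed in CIDB and 0 of 5 in DMN. Without control animal 5 the CIDB ratios were -1.40 to -0.87 and the DMN ratios that had been called were -0.87 to -0.74, and none passed the limma test.

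**Figure D4:**
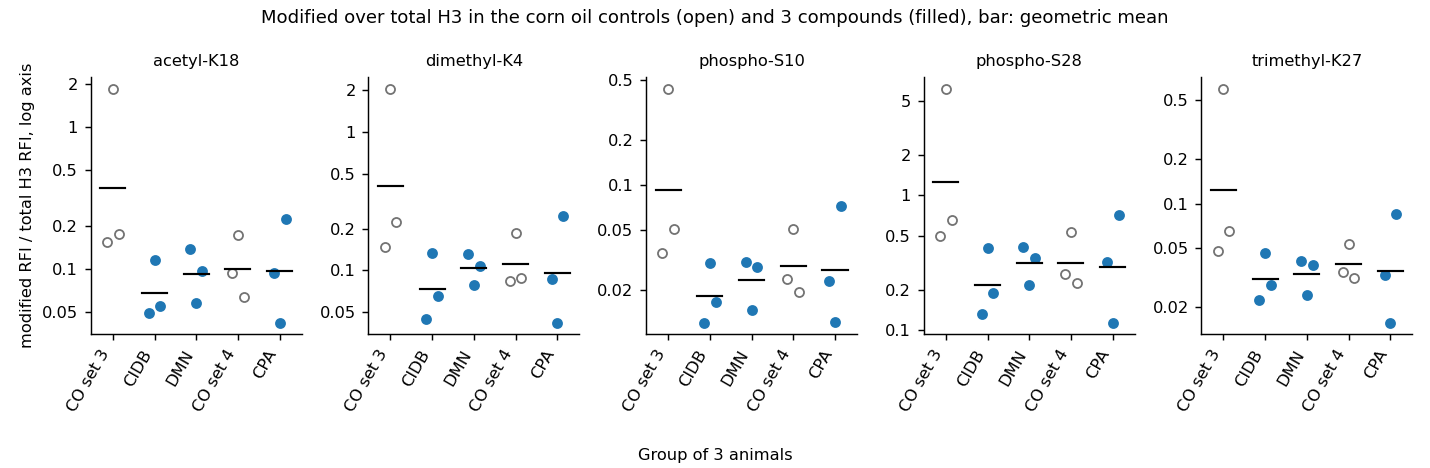
Modified over total H3 (ratio of RFI, log axis) in each animal of the corn oil sets (open circles) and of CIDB, DMN and CPA (filled circles), with a bar at the geometric mean. One animal of set 3 stands above all others in each panel, and the CIDB and DMN animals lie within the range of set 4 and CPA except for phospho-S10 over total in CIDB animal 1.

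In the remaining 13 compounds no ratio passed the limma test, with log2 changes from -0.79 in Mcarb to 1.78 for phospho-S10 over total in PBO. That ratio was 0.0418, 0.0324 and 0.103 in PBO and 0.0150, 0.00495 and 0.0470 in set 5. PBO animal 3 was high, control animal 8 was low and the groups overlapped (SE 0.72, limma adjusted p = 0.14). With total H3 as a covariate phospho-S10 passed the test in PBO, and so did phospho-S10 over the median of the animal (limma adjusted p = 0.024 and 0.025). In Wy the 5 ratios were higher without a call, from 1.09 to 1.31 on the log2 scale (lowest limma adjusted p = 0.20). They are not separate, since they share the total H3 signal, whose log2 fold change in Wy was -1.28. Over all compounds 9 of 75 H3 ratios passed, all lower, against 6.67% of the 720 panel ratios in either direction and 5.14% lower. The panel shares for the compounds without an H3 ratio call were 0.0% in AA, CFX, ETH, Mcarb, MPy, Nif and TAA, 2.08% in PB, 6.25% in PBO, 8.33% in DHEA and Wy, 12.5% in CPA and 14.6% in DES.

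Between control sets, 0 of 35 H3 ratios passed the limma test (0.893% of panel ratios). Between corn oil sets 3 and 4 all 5 had an unadjusted p under 0.05, with log2 differences of 1.67 to 2.00 and limma adjusted p from 0.055 to 0.13 (2.08% of panel ratios called).

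Within groups, trimethyl-K27 was the form with the highest correlation with total H3. Over 63 animals, the deviations from the group means on the log2 scale correlated with r = 0.50 (permutation p = 0.00014, adjusted over 10 relations 0.0014) and Spearman's rho = 0.54 (permutation p = 0.00011, adjusted 0.0011). The r was 0.51 without the 2 animals farthest from the median of total H3, 0.52 in the 18 controls and 0.53 in the 45 treated animals. Trimethyl-K27 changed by 0.20 log2 units per log2 unit of total H3. After each animal was centred on its median the r was 0.38 (permutation p = 0.0012, adjusted 0.0059) and rho 0.44 (permutation p = 0.00086, adjusted 0.0043). The p-values were two-sided, from 100000 reorderings of animals within their groups.

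The other forms had lower coefficients. Acetyl-K18 had r = 0.42 (permutation p = 0.015, adjusted 0.049) and rho = 0.40 (permutation p = 0.0097, adjusted 0.032) as deposited, and 0.15 and 0.15 after centring (permutation p = 0.20 and 0.30, adjusted 0.35 and 0.43). Dimethyl-K4 had r = 0.31 (permutation p = 0.11, adjusted 0.27) and rho = 0.33 (permutation p = 0.038, adjusted 0.096), with r = -0.01 and rho = -0.01 once centred. Phospho-S28 had r = 0.21 and rho = 0.26 (adjusted permutation p = 0.35 and 0.19), turning to r = -0.18 and rho = -0.23 after centring (adjusted permutation p = 0.43 and 0.25). Phospho-S10 had r = 0.08 and rho = 0.08 (adjusted permutation p = 0.66 and 0.65), and -0.11 and -0.12 after centring (adjusted permutation p = 0.50 and 0.52). Whether these correlations differ from each other was not tested.

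**Figure D5:**
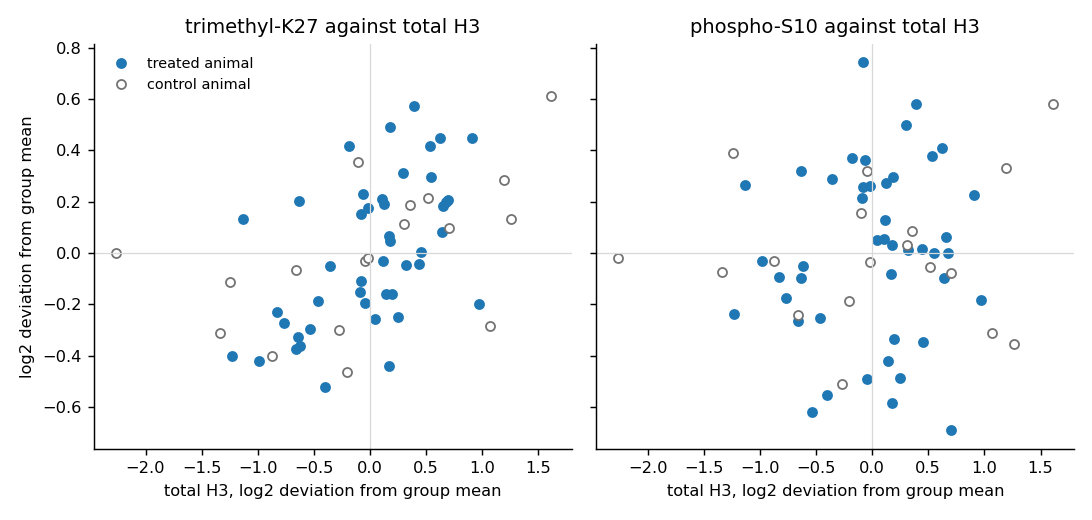
Deviation of trimethyl-K27 (left) and phospho-S10 (right) from the group mean against that of total H3, in log2 units, with 1 point for each of 63 animals (open circles controls, filled circles treated). Trimethyl-K27 rises with total H3 (r = 0.50) and phospho-S10 does not show such a trend (r = 0.08).

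The brightness of the lysate moved with all 6 analytes. The deviation of an animal's median over the 152 other analytes had a Spearman's rho of 0.76 to 0.78 with acetyl-K18, dimethyl-K4, phospho-S28 and trimethyl-K27, and of 0.43 and 0.44 with phospho-S10 and total H3. Among the 10 pairs of modified forms the median rho was 0.68 (0.49 to 0.79) as deposited and 0.28 (0.04 to 0.56) after centring. Points here share the lysate and its protein load.

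The analytes most like each member were named by the highest Spearman's rho of the deviations over 63 animals, as a description. Total H3 was most like mTOR phosphorylated at S2448 (rho = 0.65), histone H2B (HIST1H2BB, 0.64) and the kinase AKT1 (0.60). After centring, mTOR phosphorylated at S2448 (0.58) and histone H2B (0.53) stayed in front, followed by trimethyl-K27 H3 (0.44). Phospho-S10 was most like the kinase MAP3K7 phosphorylated at S412 (0.80), MAP2K4 phosphorylated at S257/T261 (0.77) and Aurora A (AURKA, 0.73), of which MAP3K7 and AURKA ranked 153rd and 155th in brightness beside phospho-S10 itself. Trimethyl-K27 was most like EGFR phosphorylated at Y1045 (0.87), PRKACA phosphorylated at T197 (0.81) and MAP2K4 phosphorylated at S257/T261 (0.81). Acetyl-K18 was most like EIF2A phosphorylated at S51 (0.86), PRKACA phosphorylated at T197 (0.85) and MYC phosphorylated at T58/S62 (0.83). For dimethyl-K4 they included JAK2 (0.87) and MCL1 (0.85), and for phospho-S28 they were PIK3R1 (0.81), JAK2 (0.77) and MYC phosphorylated at T58/S62 (0.77).

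Between compound classes the 6 analytes did not pass the test. Each compound entered as the mean log2 ratio of its animals to the median of its control set. Total H3 averaged -0.21 over 8 NGC compounds (-0.94 in DHEA to 0.79 in Mcarb), 1.24 over 2 GC compounds (0.88 in DMN, 1.60 in CIDB) and 0.08 over 2 NC compounds. The difference of NGC minus GC was -1.45 (SE 0.43, limma adjusted p = 0.16), where 0.633% of analytes were called, and the exact permutation of class labels gave p = 0.022, the smallest that 45 assignments allow (adjusted 0.44). None of the 6 had an unadjusted p under 0.05 by limma for carcinogens minus NC (C minus NC, 0.0% of analytes called) or for NGC minus NC (1.27%), and 1 of 6, total H3, had one for NGC minus GC. Phospho-S10 averaged 0.36 in NGC, 0.17 in GC and 0.13 in NC. Both GC compounds were set against corn oil set 3, and all NGC and NC compounds against methylcellulose, so class, vehicle and control set cannot be told apart.

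For ratios, a comparison added after the values were seen, all 5 were higher in NGC than in GC, and 3 of 5 passed the test. Acetyl-K18 over total (1.37, limma adjusted p = 0.099) and phospho-S28 over total (1.55, limma adjusted p = 0.061) did not pass. Dimethyl-K4 over total differed by 1.64 (SE 0.42), phospho-S10 over total by 1.98 (SE 0.51) and trimethyl-K27 over total by 1.52 (SE 0.36) on the log2 scale, each with a limma adjusted p of 0.029, and 8.33% of panel ratios were called. By exact permutation of the class labels p was 0.022 for all 5, the smallest possible, and 0.18 adjusted. Without control animal 5 of set 3, the values were 1.34, 1.72 and 1.296 with limma adjusted p from 0.065 to 0.077. No H3 ratio passed, or reached an unadjusted p under 0.05, for C minus NC or NGC minus NC (4.17% of panel ratios called in each).

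The panel held 5 of 18 other chromatin proteins looked for, namely histones H2B and acetylated H4 and the deacetylases HDAC2, HDAC3 and HDAC6. None of their 75 comparisons with controls passed the limma test (4 at an unadjusted p under 0.05), against 3.16% over all analytes. The median log2 fold change was 0.00, against -0.03 for the panel. In CIDB, where total H3 rose, histone H2B read 0.859 ± 0.237 RFI (mean ± SD, n = 3), and the set 3 controls read 0.808 ± 0.258. Its log2 fold change of 0.09 (SE 0.26) had a limma adjusted p of 0.87.

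Of 9 kinases listed for serine 10, the panel held 5 with 11 analytes. Of their 165 comparisons, 1 was called higher and 8 lower by limma (5.45%, against 3.16% over all analytes), with a median log2 fold change of -0.07. The 1 higher was the antibody against the shared activation-loop site of Aurora A, B and C (AURKA_P-T288/T232/T198) in PBO, the compound in which phospho-S10 was called. Both calls rest on the same set 5 controls, and the phospho-S10 call was lost under several alternatives. Like phospho-S10, the Aurora analyte lay close to the lower end of the panel in brightness, and a link between them was not tested. The treated animals read 0.135 ± 0.0145 RFI (mean ± SD, n = 3) and the set 5 controls 0.0823 ± 0.0132, a log2 fold change of 0.72 (SE 0.22, limma adjusted p = 0.038). Aurora A itself (AURKA, 0.33), its single-site form (AURKA_P-T288, -0.06) and Aurora B (AURKB, -0.12) did not pass in PBO on the log2 fold change scale. The lower calls were ERK1 phosphorylated at T202/Y204 (MAPK3_P-T202/Y204) in CIDB, DHEA, ETH, PB, PBO and Wy, from -1.10 to -0.87, and p38 (MAPK14) in DHEA (-0.61) and Wy (-0.72).

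Of 17 proliferation proteins listed, 5 were present with 7 analytes. By limma, 2 of 105 comparisons were called higher and 6 lower (7.62%, against 3.16% over all analytes), with a median log2 fold change of -0.04. The higher ones were cyclin E2 (CCNE2) in PB (0.94) and PBO (0.76). The lower ones were all the cell cycle inhibitor p27 phosphorylated at S10 (CDKN1B_P-S10) in CIDB, DES, DHEA, PB, TAA and Wy, from -1.58 to -0.89. The proliferation marker MKI67 in PBO read 0.403 ± 0.0316 RFI (mean ± SD, n = 3) beside 0.320 ± 0.0881 in set 5, with a log2 fold change of 0.37 (SE 0.26, limma adjusted p = 0.52). For loading, GAPDH and ACTB were measured, and none of 30 comparisons passed (2 at an unadjusted p under 0.05 by limma), against 3.16% over all analytes. The median log2 fold change was 0.14, and ACTB had the widest within-group spread of all analytes (SD 1.53 on the log2 scale).

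Some hepatocyte analytes were called beside both H3 calls, while other antibodies to the same proteins were not. In CIDB, glutamine synthetase (GLUL), an enzyme of the hepatocytes around the central vein, read 0.0974 ± 0.0916 RFI (mean ± SD, n = 3) beside 0.952 ± 0.505 in set 3. Its log2 fold change was -3.89 (limma adjusted p = 0.00017), with treated values close to the lower end of the panel. GLUL ranked 3 of 158 analytes in within-group spread (SD 0.95 on the log2 scale). Also in CIDB, the transcription factor HNF4A was lower by -0.54 (limma adjusted p = 0.038) and the CYP3A4_2 analyte by -1.53 (limma adjusted p = 0.00039). The other antibody, CYP3A4_1, did not pass (0.11, limma adjusted p = 0.87). The remaining hepatocyte analytes did not pass in CIDB either and went both ways, from -1.02 (CYP2B6_3) to 0.23 (CYP2E1_2). In PBO, CYP3A4_2 (5.23), CYP2B6_1 (2.92) and CYP1A2_1 (2.47) rose on the log2 fold change scale. The other antibodies to these proteins did not pass in PBO, namely CYP3A4_1 (-0.15), CYP2B6_2 (0.12), CYP2B6_3 (1.11) and CYP1A2_2 (0.26). The rest of the list did not pass in PBO either. Lower were GLUL (-1.92, values at or below 0 left out), CYP2E1_1 (-1.65) and HNF4A (-0.23). Higher were CYP2E1_2 (0.92), CYP2C8 (0.77) and IGFBP1 (0.46). Of the 195 comparisons of the 13 hepatocyte analytes, 10 were called higher and 11 lower (10.8%, against 3.16% over all analytes). Their median log2 fold change was -0.07. Their part in the H3 values was not tested.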

How the data were processed

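Frozen liver lysates adjusted to one protein concentration were printed on reverse-phase arrays and probed with 1 antibody per analyte. The deposited RFI intensity values are, per the study's methods, local-background-subtracted spot intensities normalised over the array, as weighted means of replicate spots. The submitters' table, an alternative, holds deposited log2 ratios to the control-set median (at 0 in 36 of 36 H3 cases), made per the study's methods from blank-corrected signals, the background being read with secondary antibody alone. Whether RFI had this correction is not given in the sources used here. From the log2 RFI of 158 analytes, 21 group means were fitted over 63 animals with limma 3.58.1 (R 4.3.3). Values at or below 0 were left out (none of H3). P-values were adjusted by Benjamini-Hochberg over all analytes, or over all 48 ratios of a modified form to its total, of a comparison. The fits were tested on simulated data. Permutations used Python 3.11.15 and scipy 1.17.1.

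The members and lists were chosen with earlier results of these data known. Named were all 6 members and, for each, its 3 most correlated analytes (1 is not reported here), and list analytes that passed the test. Others of the lists were named after their values were seen. Compound classes were those of the series' design text. Animal numbers paired CPA with set 4 (correlation of deviations 0.16 to 0.31, in 3 of 3 pairs), and the replicate block changed no H3 call there. With 3 animals per group the number of animals limits precision. Alternatives were centring, all vehicle controls, the log2 table, other variance models, pseudocount 0.1, a floor, leaving out dim analytes (median RFI under 0.2) and leaving out each animal.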

Additional observations from a re-analysis of the deposited data

Results flagged for a closer look

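Control animal 5 of set 3 stood apart among the 6 corn oil controls. Its gap to the nearest of the others, divided by the range, was 0.695 for total H3 and, for the ratios to total, 0.697 (acetyl-K18), 0.694 (dimethyl-K4), 0.688 (phospho-S10), 0.675 (phospho-S28) and 0.751 (trimethyl-K27). Each exceeds Dixon's critical value of 0.625, which chance exceeds in about 1 of 20 groups. The 6 values are not separate, since they share the total H3 signal of this animal. It was an outlier in no modified form, of 11 quantities checked.

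The difference of NGC minus GC compounds was marked for dimethyl-K4 over total (1.64), phospho-S10 over total (1.98) and trimethyl-K27 over total (1.52), on the log2 scale. Both GC compounds were set against set 3, which holds control animal 5.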

How the results depend on the processing

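Under the alternatives, 536 counts of H3 calls were within 1.5 times the main count, 11 were higher and 30 lower. Most comparisons had 0 calls in the main fit, so most of the 536 compare 0 with 0. Total H3 in CIDB kept its sign and call in 12 of 14 alternatives, and phospho-S10 in PBO in 7 of 13. The called ratios did so in 6 to 8 of 12 in CIDB, 4 to 5 of 12 in DMN and 7 of 16 for NGC minus GC. For H3 analytes, CIDB had 1 call and 2 after centring, and 0 with only the 6 animals. PBO had 1 call and 0 against all vehicle controls, in the log2 table and with dim analytes left out, a filter that removes phospho-S10 itself. DHEA, PB and Wy had 0 calls and 1 each with only the 6 animals. Leaving out 1 animal gave 0 to 1 calls in CIDB and 0 to 2 in PBO, the 2 including acetyl-K18 without PBO animal 3. For ratios, CIDB had 5 calls, all lower, 0 with total as a covariate and 1 with the animal's median as denominator. That 1 was a higher call, in the opposite direction to the 5. CIDB had 3 calls against all vehicle controls and 0 with only the 6 animals, and 0 to 5 on leaving out 1 animal. DMN had 4 calls, 0 in each of those settings, and 0 to 5 on leaving out 1 animal, with 0 on leaving out control animal 5 or DMN animal 2 or 3. PBO had 0 calls, 1 with the covariate and with the animal's median, and 0 to 1 on leaving out 1 animal. DHEA and Wy had 0 calls and 3 each with only the 6 animals. NGC minus GC had 3 calls, 0 without control animal 5, against all vehicle controls, in the log2 table and by exact permutation, and 0 to 5 on leaving out 1 compound (0 without CIDB, DES, DMN, ETH or PB, 5 without Mcarb), a comparison added after the data were seen.

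Among the called results, signs turned for phospho-S10 in PBO in the log2 table (-0.52). With the animal's median as denominator the CIDB ratios turned to 0.19 (acetyl-K18), 0.15 (dimethyl-K4), 0.29 (phospho-S10), 0.091 (phospho-S28) and 0.63 (trimethyl-K27), and trimethyl-K27 in DMN to 0.084. This setting removes total H3 from the ratio. With the covariate, phospho-S10 (0.23) and trimethyl-K27 (0.13) turned in CIDB. Other causes were not tested. Among values not called, signs turned in the log2 table for 65 of 148 analyte values and 25 of 78 ratios, on centring for 39 of 148, with the animal's median as denominator for 23 of 66 and with the covariate for 26 of 66.

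The replicate block, which was possible for PB with set 6 and CPA with set 4, gave 0 calls among the analytes and 0 among the ratios in each, as without it. The PB numbers did not pair the animals (correlation 0.01 to 0.07). Between the RFI and the log2 table, the 3 animals kept their order for total H3 in 11 of 15 treated groups and 2 of 6 control sets, for phospho-S10 in 5 of 15 and 1 of 6, for acetyl-K18 in 2 of 15 and 1 of 6, for phospho-S28 in 4 of 15 and 2 of 6, for dimethyl-K4 in 6 of 15 and 3 of 6, and for trimethyl-K27 in 9 of 15 and 3 of 6. Over the 45 treated animals, trimethyl-K27 RFI had a Spearman's rho of 0.67 with its own log2 row and 0.70 with that of PAK1_P-S141, while the other 5 members were closest to their own row. The reason was not tested.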
